A study of Mus musculus with 1 sample.

Results

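Poly(A) tails were described for 10 genes of the actin cytoskeleton in wild-type mouse cells 24 h after embryonic stem cells (ESCs) were set on the way to epiblast-like cells (EpiLCs). The genes were the cytoplasmic actins Actb and Actg1, the monomer-binding proteins Pfn1, Tmsb4x and Tmsb10, the filament-severing protein Cfl1, the Arp2/3 subunit Arpc2, the myosin light chains Myl6 and Myl12b, and the filament binder Tagln2. They were listed by name as actins and small actin-binding proteins. Tail length was no part of that rule, but earlier results of these data were known when the list was made. All 10 had reads, among 12816 nuclear genes with reads, and they held 2058 of 701976 nuclear transcripts. For 7 of the 10, each replicate held 10 transcripts or more. Actg1, Tmsb10 and Myl6 fell short of that and are described by their few reads.

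The data came from 1 sample of strain ICR cells, wild type and given no other genetic change by the labels, grown for 24 h in N2B27 medium with activin A, bFGF and KSR on Matrigel. The sample held 2 replicates with different barcodes, numbered here by barcode because the labels do not tie a barcode to a replicate. The paper calls the replicates independent, but nothing states that they were separate cultures, so their spread may be technical. There was 1 group only, so no test between conditions could be made, and cells without the deadenylase Cnot8 were not analysed here.

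PAIso-seq reads a full-length cDNA together with its poly(A) tail on the PacBio platform, and each molecule is read in repeated passes. Reads with at least 7 passes were used, and tail length is the number of tail bases in nucleotides (nt), bases other than A included. Replicate 1 held 246316 nuclear transcripts and replicate 2 held 455660, with 906 and 1152 of them from the 10 genes. A count of 3 transcripts, the floor used here, is 0.00122% and 0.000658% of these libraries. All 7 EpiLC markers searched had reads, as did all 4 markers shared by naïve and formative cells and 7 of 8 naïve markers. The EpiLC markers summed to 465 and 685 transcripts and the naïve markers to 162 and 427. Zfp42 alone gave 129 and 372 of the naïve sums, and Dnmt3a gave 194 and 300 of the EpiLC sums. Markers of fibroblasts and mesoderm had no reads, endoderm markers had 1, neural markers had 5 and muscle markers had 3.

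Actin is the protein of the thin filaments that give a cell its shape and its ability to move. Filaments grow from a pool of monomers that profilin and the thymosins hold, the Arp2/3 complex starts new branches, cofilin severs old filaments, and non-muscle myosin pulls on them. The poly(A) tail is added when the pre-mRNA is cleaved after a signal such as AATAAA, it is bound by poly(A)-binding protein, and deadenylases of the Ccr4-Not complex shorten it before most mRNAs decay.

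The sequences around the annotated 3′ ends show what each tail adjoins. The 3 genes with most transcripts are shown because results below turn on what follows their ends. In each line the 10 bases before the end are in lower case and the 20 genomic bases after it are in capitals, read 5′ to 3′ on the strand of the gene in the GRCm38 (mm10) genome.
Actb, chr5:142903095-142903124, minus strand: tacacaaacaGCTTGTGGCTCTGTGGCTTT
Pfn1, chr11:70651830-70651859, minus strand: attctactaaCAAGGACCTGTGTTGGTTTG
Cfl1, chr19:5495192-5495221, plus strand: taaaacttttAAAAAAAAAAAAAAAAAGGA
After the Actb end the genome holds no A. After the Cfl1 end it holds a run of 17 A, and only 20 of the 4286 genes with enough reads, Cfl1 included, have a run as long. The Pfn1 end is followed by C, AA and GG, a series of letters that returns below in the tails themselves. The hexamer AATAAA was searched in the last 40 bases of each annotated transcript on the transcribed strand. It was found in 10 of the 10 genes, and in 72.3% of 4018 protein-coding genes with enough reads. The variant ATTAAA was found in 0 of the 10 and in 25.8% of those genes.

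Most of the genes with enough reads had tails longer than the median gene. The tail length of a gene is the geometric mean over its transcripts, and a gene was called longer or shorter when that value was above or below the median gene of the same replicate in both replicates. The median gene had 78.0 nt in replicate 1 and 77.9 nt in replicate 2. Of the 7 genes, 6 were longer and 1 was shorter, where 35.0% of all 4286 genes were called longer and 35.0% shorter. Longer genes were Actb, Pfn1, Myl12b, Tagln2, Cfl1 and Tmsb4x, and Arpc2 was shorter. The median of the 7 genes was 15.9 nt above that of all genes in replicate 1 and 18.0 nt above it in replicate 2 (16.9 ± 1.48 nt, SD, n = 2). Against the median gene of the same decile of annotated transcript length, 5 of the 7 genes were longer in both replicates, where 33.7% of all genes were. Each gene was placed by its longest annotated transcript. For Pfn1 that was 1997 nt, although another annotated Pfn1 mRNA has 861 nt, near the 864 nt of Tmsb4x, so its decile depends on that choice. Pooled values differed from the median of the gene's own decile by −13.4 nt (Arpc2) to 40.2 nt (Actb). Because of how the list was made, these counts describe the 7 genes and test nothing.

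**Figure D1:**
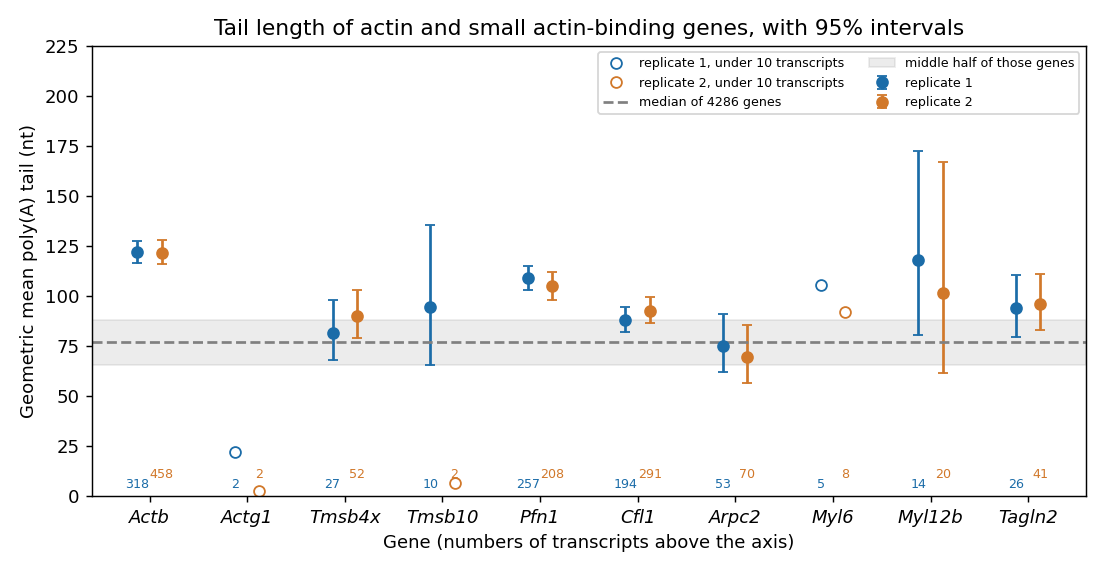
Geometric mean poly(A) tail length in nt (vertical axis) of each of the 10 genes in replicate 1 (blue) and replicate 2 (orange), with 95% intervals where at least 10 transcripts were read, open circles where fewer were, and transcript numbers above the axis. The dashed line is the median of 4286 genes and the grey band runs from their lower to their upper quartile (65.5 to 88.1 nt). Actb sits above the band in both replicates, Arpc2 lies at or under the line, and Actg1 rests on 4 transcripts.

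Actb (ENSMUSG00000029580, chromosome 5, 142903115 to 142906754, minus strand) encodes the β-actin that most cells use for their filaments. Its tail length was 121.8 nt in replicate 1 (95% interval 116 to 128, 318 transcripts) and 121.7 nt in replicate 2 (116 to 128, 458 transcripts). The mean of the replicates was 121.7 nt with an SD of 0.109 nt, and the pooled value was longer than that of 99.2% of the 4286 genes. The medians were 129 and 136 nt, so the geometric mean lies below the middle of the distribution. Tails over 90 nt made up 86.2% and 85.6% of Actb transcripts, against 50.5% of other nuclear transcripts in both replicates. The 10th percentiles of Actb tails were 81.7 and 79.7 nt, and the longest tails had 218 and 227 nt. Tails of 6 to 30 nt were almost missing, with 0 of 318 transcripts in replicate 1, which allows a share of up to 0.943%, and 3 of 458 in replicate 2. Actb alone gave 37.7% of the transcripts of the 10 genes.

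Actg1 (ENSMUSG00000062825, chromosome 11, 120345690 to 120348542, minus strand) encodes γ-actin, the other cytoplasmic actin, with a nearly identical protein. Only 4 transcripts were assigned to it. Their tails had 8 and 61 nt in replicate 1 and 2 and 4 nt in replicate 2. Actb exceeded it by 99.7 nt in replicate 1 and by 119 nt in replicate 2, on 2 Actg1 reads in each. The coding sequences of both actins shared 88.7% of their bases and their 3′ untranslated regions 54.0%.

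The reads of γ-actin sequence lay elsewhere in the genome. Processed pseudogenes, which are copies of an mRNA set back into the genome, hold near-identical sequence, and reads of the gene and of its copies cannot be told apart with certainty in these assignments. Gm12715 on chromosome 4 matched 99.6% of the aligned Actg1 bases and held 168 transcripts. Gm8399 on chromosome 13 matched 98.6% and held 77. Tails on Gm12715 had 94.6 nt in replicate 1 and 96.3 nt in replicate 2, while those on Gm8399 had 76.1 and 110 nt. Actg1 together with its copies held 249 transcripts, of which 1.61% were on Actg1, with 85.7 and 96.1 nt (90.9 ± 7.36 nt, SD, n = 2). In that count Actb remained longer, by 30.8 nt on average. Adding the copies was chosen after the data were seen.

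Reads of Myl6 sequence also lay mostly on copies, whereas Tmsb10 had 12 transcripts of its own beside 2 on a copy. Myl6 (ENSMUSG00000090841, chromosome 10, 128490860 to 128494145, minus strand) encodes the essential light chain of smooth muscle and non-muscle myosin. It held 5 and 8 transcripts, with geometric mean tails of 106 and 91.9 nt and ranges of 70 to 192 and 41 to 166 nt. Its processed pseudogene Gm10080, with 99.1% identity, held 200 transcripts with tails of 135 and 117 nt. Myl6 with its copies came to 129 and 114 nt over 218 transcripts (121.3 ± 10.6 nt, SD, n = 2), and 5.96% of those reads lay on Myl6 itself. With the copies counted, 8 of 9 genes were longer than the median gene in both replicates, where 34.9% of all genes were.

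**Figure D2:**
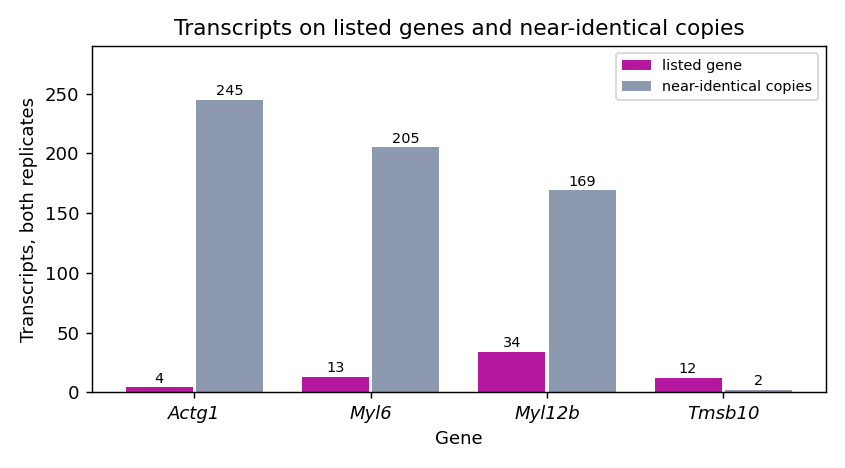
Transcripts of both replicates (vertical axis) assigned to Actg1, Myl6, Myl12b and Tmsb10 (magenta) and to annotated genes and pseudogenes of at least 95% identity over at least 300 bases (grey). Actg1 has 4 transcripts beside 245 on its copies and Myl6 has 13 beside 205, whereas Tmsb10 has 12 beside 2.

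Pfn1 (ENSMUSG00000018293, chromosome 11, 70651850 to 70654644, minus strand) encodes profilin, which binds actin monomers and feeds them to growing filaments. Its tail length was 108.8 nt in replicate 1 (95% interval 103 to 115, 257 transcripts) and 105.0 nt in replicate 2 (98.3 to 112, 208 transcripts). Their mean was 107 ± 2.71 nt (SD, n = 2), longer than 95.6% of genes. Both replicates lay below Actb, by 13.0 and 16.7 nt (14.8 ± 2.60 nt, SD, n = 2). No Pfn1 tail was shorter than 17 nt, and 0 of 465 tails had 1 to 5 nt, which allows a share of up to 0.645%. Pfn1 also had the longest tail among the 10 genes, 278 nt in replicate 2.

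The replicates differed in the number of Pfn1 transcripts. It came to 1043 CPM, counts per 1000000 nuclear transcripts, in replicate 1 and 456 CPM in replicate 2, a ratio of 2.29. The ratios of 1517 genes with at least 100 transcripts had quartiles of 0.742 and 1.23, and 97.0% of them were lower than that of Pfn1. Actb had a ratio of 1.28. In cells measured in bulk, fewer cells of a type, less RNA per cell and technical spread between the 2 libraries cannot be told apart. Their part in the tail lengths was not tested.

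Tmsb4x (ENSMUSG00000049775, chromosome X, 167207093 to 167209315, minus strand) and Tmsb10 (ENSMUSG00000079523, chromosome 6, 72957347 to 72958748, minus strand) encode thymosins, small peptides that keep actin in monomers. Tmsb4x had 81.6 nt in replicate 1 (95% interval 67.9 to 98.1, 27 transcripts) and 90.3 nt in replicate 2 (79.2 to 103, 52 transcripts), with a mean of 85.9 ± 6.12 nt (SD, n = 2). That was above the median gene by 3.61 and 12.4 nt, and the interval of replicate 1 held the median gene. Tmsb4x was no longer called when tails under 15 nt were dropped, or when medians or arithmetic means took the place of geometric means. In the decile of genes with the shortest annotated transcripts, to which Tmsb4x belongs, the median gene was at 96.1 nt, and the pooled Tmsb4x value differed from it by −8.89 nt. Tmsb10 had 10 transcripts in replicate 1, with tails from 26 to 173 nt, and 2 in replicate 2, with 1 and 44 nt. Tmsb4x minus Tmsb10 was −12.9 nt in the first replicate and 83.6 nt in the second, so the thymosins could not be ordered.

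Cfl1 (ENSMUSG00000056201, chromosome 19, 5490455 to 5495201, plus strand) encodes cofilin, which severs actin filaments and frees monomers. Its tail length was 88.0 nt in replicate 1 (95% interval 81.8 to 94.5, 194 transcripts) and 92.7 nt in replicate 2 (86.3 to 99.6, 291 transcripts), with a mean of 90.3 ± 3.36 nt (SD, n = 2). The medians were 100.5 and 102 nt. Cfl1 tails were shorter than Actb tails by 33.9 and 29.0 nt and Cfl1 minus Pfn1 was −20.9 and −12.3 nt.

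The run of 17 A printed above bears on the Cfl1 value, because the authors extended each tail into adjoining A bases. A transcript that ends within the run therefore counts genomic A as tail. When the genomic A run at the annotated end was taken off every tail of every gene, and the 7 Cfl1 tails no longer than the run were left out, Cfl1 had 70.3 and 77.9 nt. The median gene then had 77.2 and 78.4 nt, so Cfl1 was no longer above it in either replicate. For a transcript that ends before the run, taking the run off removes A bases of the tail itself. How many Cfl1 transcripts end within the run was not tested. This alternative was chosen after the data were seen.

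**Figure D3:**
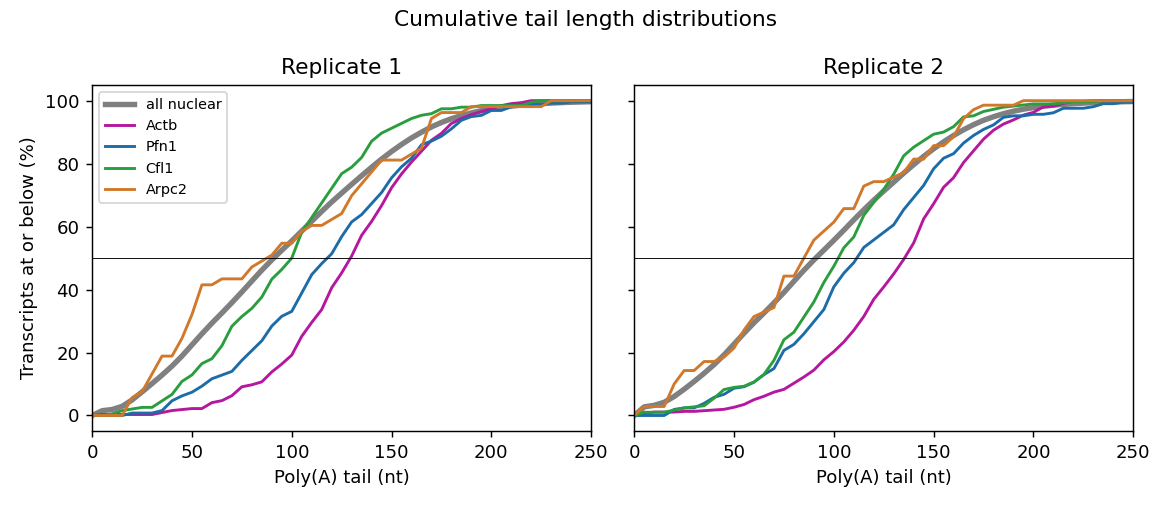
Share of transcripts (vertical axis, %) with a tail at or below a given length (horizontal axis, nt) in replicates 1 and 2, for all nuclear transcripts (thick grey line), Actb, Pfn1, Cfl1 and Arpc2. The lines of Actb cross 50% at 129 and 136 nt, right of all others, while the grey line crosses it at 91 nt in both replicates.

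Arpc2 (ENSMUSG00000006304, chromosome 1, 74236084 to 74268209, plus strand) encodes a core subunit of the Arp2/3 complex, which starts branched filaments. Its tail length was 75.3 nt in replicate 1 (95% interval 62.3 to 90.98, 53 transcripts) and 69.6 nt in replicate 2 (56.4 to 85.7, 70 transcripts). The mean was 72.4 ± 4.05 nt (SD, n = 2), its differences from the median gene were −2.71 and −8.33 nt, and both intervals hold the median gene. Arpc2 had the widest spread of the 7 genes, with interquartile ranges of 91 and 74 nt against 48.8 and 52.8 nt in Actb. The plot of cumulative distributions shows Arpc2 near or left of the line of all transcripts below 60 nt.

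Myl12b (ENSMUSG00000034868, chromosome 17, 70973133 to 70990890, minus strand) encodes a regulatory light chain of non-muscle myosin. It had 118 nt in replicate 1 (95% interval 80.5 to 173, 14 transcripts) and 102 nt in replicate 2 (61.8 to 167, 20 transcripts), with a mean of 110 ± 11.6 nt (SD, n = 2). The interval of replicate 2 held the median gene. The neighbouring gene Myl12a on the same chromosome was 96.9% identical to Myl12b over the aligned bases. It held 169 transcripts with 101 and 85.0 nt, and reads of both genes may be split between them. Tagln2 (ENSMUSG00000026547, chromosome 1, 172500047 to 172507380, plus strand), a transgelin that binds along filaments, had 93.9 nt in replicate 1 (26 transcripts) and 95.9 nt in replicate 2 (41 transcripts). Its mean was 94.9 ± 1.41 nt (SD, n = 2), longer than 85.6% of genes.

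From long to short by the mean of both replicates, the order was Actb, Myl12b, Pfn1, Tagln2, Cfl1, Tmsb4x and Arpc2. Each gene exceeded the next in both replicates except Myl12b and Pfn1, which were 9.06 nt apart in replicate 1 but −3.49 nt in replicate 2. The ratio of pooled values had a 95% interval above 1 for Pfn1 over Tagln2 (1.13, 1.002 to 1.27) and for Tmsb4x over Arpc2 (1.21, 1.01 to 1.45), counting error only. For the other 4 neighbouring pairs the interval of the ratio held 1. Actb and Cfl1, further apart in the order, did not overlap, with pooled intervals of 118 to 126 nt and 86.2 to 95.6 nt.

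Taken over transcripts in place of genes, tails of the 10 genes had a median of 116 nt in both replicates, against 91 nt for other nuclear transcripts, a difference of 25 nt in each. Actb, Cfl1 and Pfn1 gave 83.9% of these transcripts. Without Actb, an alternative chosen after the data were seen, the difference was 15 nt. Lengths from 91 to 120 nt were the fullest class, with 25.1% of transcripts in replicate 1 and 25.8% in replicate 2, against 18.4% and 19.0% of all nuclear transcripts. The class from 31 to 60 nt held 10.8% and 7.64%, against 19.2% and 18.6%.

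Very short tails of 1 to 5 nt were rare. They made up 0.110% of the transcripts of the 10 genes in replicate 1 (1 of 906, 95% Wilson interval 0.0195 to 0.623) and 1.04% in replicate 2 (12 of 1152, 0.597 to 1.81). Other nuclear transcripts had 1.53% in replicate 1 and 2.75% in replicate 2, so the shares were lower in the 10 genes in each replicate, and higher in replicate 2 in both sets.

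Bases other than A were about as frequent as in other transcripts. At least 1 such base was found in 13.5% of tails of the 10 genes in replicate 1 (95% Wilson interval 11.4 to 15.8) and in 11.02% in replicate 2 (9.34 to 13.0), against 12.2% and 9.54% of other tails. Because the tails were longer, the rate per tail base is the closer comparison, and it was 1.99 and 1.29 per 1000 bases against 1.77 and 1.40. Actb had 1.41 and 0.977 per 1000, Cfl1 had 2.26 and 1.66, and Pfn1 had 2.85 and 1.49. A last base T, the cDNA letter of the U that uridylation adds, was present in 3.77% and 2.18% of Actb tails and in 4.64% and 3.78% of Cfl1 tails, against 3.93% and 2.58% of other nuclear tails. The Cfl1 interval of 2.46 to 8.58% in replicate 1 held the share of other tails. An Actb tail of 65 nt and a Cfl1 tail of 10 nt, chosen for their last T and many passes, are shown with bases other than A in capitals. The Cfl1 tail is shorter than the genomic run of 17 A, so its A bases and genomic A cannot be told apart.
Actb tail: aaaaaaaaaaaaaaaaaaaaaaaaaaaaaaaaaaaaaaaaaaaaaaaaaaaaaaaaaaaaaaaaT
Cfl1 tail: aaaaaaaaTT

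Pfn1 tails held a base other than A near their start more often than most genes did. In the first 10 positions, 45 of 465 Pfn1 tails (9.68%) held 1 or more, against a median of 1.52% over 1775 genes read 30 times or more in both replicates, and 32 of those genes, Pfn1 included, reached that share. In tails of at least 30 nt, position 3 differed from A in 10.6% of Pfn1 tails in replicate 1 and in 5.91% in replicate 2. Actb had 0 of 317 and 0 of 452 such tails at that position.

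The letters were those of the genome past the annotated end. The annotated Pfn1 transcript ends in AA, the genome goes on with C, AA and GG, and 40 of 465 tails (8.60%, 95% Wilson interval 6.38 to 11.5) began with the same letters up to the C or further. That was 27 of 257 in replicate 1 (10.5%) and 13 of 208 in replicate 2 (6.25%). Of these, 4 ran through the GG, all in replicate 1. A tail of 101 nt with the longest match is shown here, with bases other than A in capitals, to be read beside the Pfn1 window above.
Pfn1 tail: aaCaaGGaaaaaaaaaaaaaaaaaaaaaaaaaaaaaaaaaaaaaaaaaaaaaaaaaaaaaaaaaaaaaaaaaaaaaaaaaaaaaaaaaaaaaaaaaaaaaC
Such bases count as tail here and add a few nt to those tails. Whether they were left by ends past the annotated one or by the alignment was not tested.

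**Figure D4:**
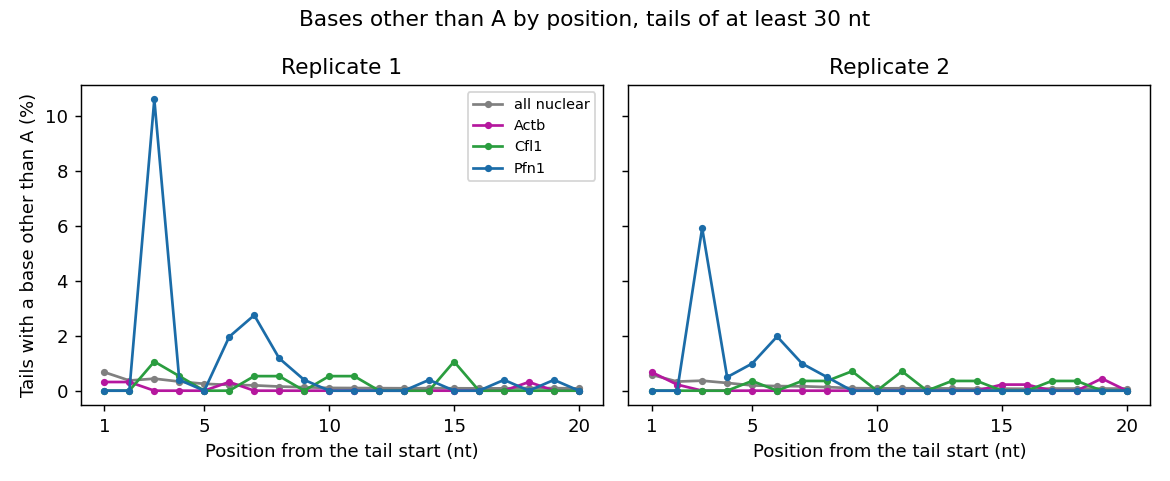
Share of tails of at least 30 nt (vertical axis, %) with a base other than A at each of the first 20 positions (horizontal axis, nt from the tail start) in replicates 1 and 2, for all nuclear transcripts, Actb, Cfl1 and Pfn1. Pfn1 peaks at position 3 with 10.6% and 5.91%, and the other lines stay far lower in both replicates.

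Other genes of the actin cytoskeleton had tails like those of all genes. Of 88 listed genes, 77 had reads and 49 reached 10 transcripts in both replicates. Longer than the median gene in both replicates were 17 of them, 18 were shorter and 14 neither. Over all 4286 genes, 35.0% were longer and 35.0% shorter. The median of the 49 genes minus that of all genes was −0.313 and −2.13 nt (−1.22 ± 1.28 nt, SD, n = 2). Among those read 30 times or more in both replicates, the 3 longest were Flna, which cross-links filaments, with 138 and 90.6 nt, Dbnl with 95.2 and 94.5 nt, and Myl12a. The 3 shortest were Actr3, the Arp3 subunit of the Arp2/3 complex, with 73.2 and 55.5 nt, Capza2, which caps filament ends, with 61.7 and 61.8 nt, and Enah with 67.9 and 61.8 nt.

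The partners of Arpc2 did not share one length. Of the 8 other genes listed for Arp2/3 subunits, paralogs included, 6 had enough reads. Of these 6 genes, 3 were longer, 2 shorter and 1 neither, where 35.0% of all genes were longer and 35.0% shorter. The muscle actins Acta1, Acta2, Actc1 and Actg2 had no reads.

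**Figure D5:**
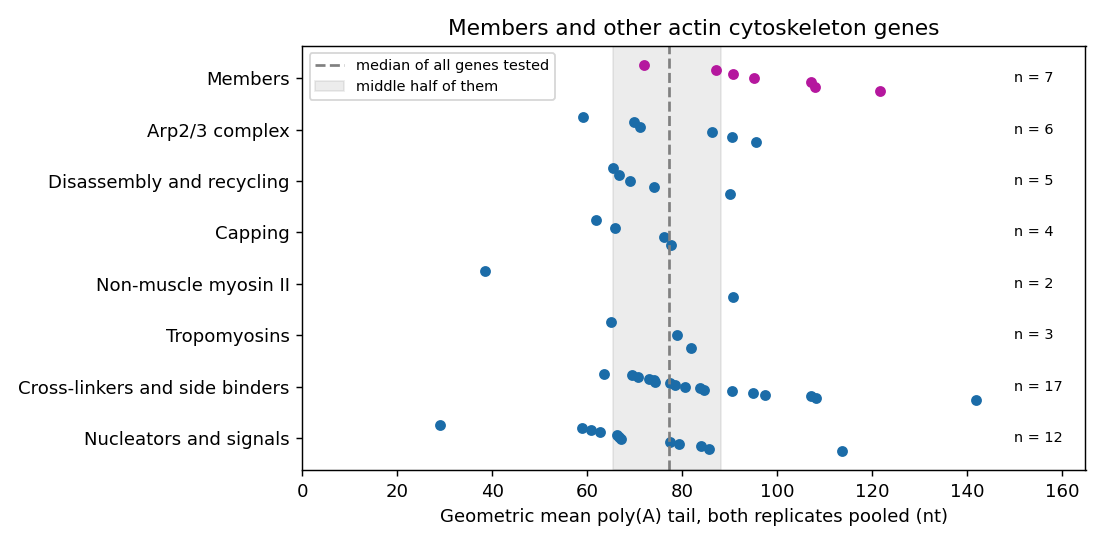
Geometric mean poly(A) tail in nt (horizontal axis, both replicates pooled) of the 7 genes with enough reads (magenta) and of 49 other actin cytoskeleton genes by role (blue, 1 point per gene). The dashed line is the median of all 4286 genes and the grey band runs from their lower to their upper quartile. To the right of the band lie 5 of the 7 magenta points. For all genes that share is fixed by the definition of the upper quartile. Cfl1 is 1 of the 5, and with the genomic A run taken off it had 74.8 nt.

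Against other gene families the 7 genes stood less far apart. Their median lay above that of 9 tubulin genes by 9.78 and 3.88 nt (6.83 ± 4.17 nt, SD, n = 2). It lay above that of 52 protein-coding genes named Rpl or Rps with a number by 3.06 and 10.1 nt (6.59 ± 4.99 nt, SD, n = 2). This name rule was meant for cytosolic ribosomal proteins, but it also admits S6 kinase genes (Rps6k) and misses Rplp0 and Rpsa. Tubulin, the protein of microtubules, had 7 of 9 genes longer than the median gene, and the Rpl and Rps list had 35 of 52, where 35.0% of all 4286 genes were longer.

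The length distribution nearest to that of Actb was sought among 447 other genes read 100 times or more in both replicates, by the largest gap between cumulative distributions. With both replicates pooled, Gm7336, a processed pseudogene, had a gap of 0.0322, the ribosomal protein gene Rps21 had 0.0325 and the pseudogene Gm14303 had 0.0708, where the median gene had 0.358. In replicates 1 and 2 these gaps were 0.0812 and 0.0466 (Gm7336), 0.0420 and 0.0508 (Rps21), and 0.0782 and 0.0897 (Gm14303). For Cfl1 the nearest when pooled were Ywhae at 0.0606, Ybx1 at 0.0617 and Ppp1ca at 0.0650, and the median gap was 0.171. In replicates 1 and 2 those gaps were 0.0647 and 0.0878 (Ywhae), 0.113 and 0.0624 (Ybx1), and 0.0822 and 0.0644 (Ppp1ca). The order of the 3 genes thus differed between replicates for Actb and for Cfl1.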

How the data were processed

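The authors made circular consensus reads, split them by barcode, mapped them to the mouse genome (mm10; minimap2 2.17 and featureCounts 2.0.1 are named in the submitters' processing notes) and took the bases beyond each alignment as tail, extended into adjoining A bases. Reads without a tail were left out. The authors deposited, for each read, unnormalized counts of passes and of the A, T, C and G bases of its tail, with the tail sequence. Columns of other series used here numbered 0. From these, geometric means and Wilson intervals were computed in Python 3.11.15 with numpy 2.4.6, pandas 2.3.3 and scipy 1.17.1, near-identical copies with BLAST 2.17.0 and identities with Biopython 1.88. Reads have no molecular identifiers, so intervals and floors cover counting error only. Gene names came from GENCODE vM21 (GRCm38), in which 12955 of 12962 identifiers were found, and mitochondrial genes were left out. The calls and intervals were tested on simulated tails with the same spread for every gene and no variation between replicates. Their coverage on the real tails was not tested. Genes named besides the 10 were the 3 longest and 3 shortest of the other actin cytoskeleton genes read 30 times or more in both replicates, and the 3 nearest distributions for each of the 2 genes with most transcripts. Pseudogene copies and Arp2/3 counts were named after their values were seen. The members and lists were chosen with earlier results of these data known. Alternatives changed the pass filter, the length measure, the shortest tail, the reference genes and the replicates.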

Additional observations from a re-analysis of the deposited data

Results flagged for a closer look

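Reads with fewer than 7 passes were not used. Among them, 77 reads came from the 10 genes, of 2135 reads with any number of passes, and their median tail was 128 nt. There were no control samples. Transcript numbers were above the floor of 3 in each replicate except for Actg1, with 2 and 2, and Tmsb10, with 2 in replicate 2.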

How the results depend on the processing

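The count of 6 longer of 7 genes ranged from 6 of 7 to 7 of 8 on leaving out 1 replicate, where 49.99% and 50% of all genes were longer in place of 35.0%. It was 3 of 4 among genes read 30 times or more in both replicates, where fewer genes were tested and 38.8% were longer. Tmsb4x was lost with tails of at least 15 nt, with medians or arithmetic means per gene and within its length class, and Cfl1 with the genomic A run taken off. The remaining alternatives gave 6, and counting pseudogene copies gave 8 of 9. The median tail length of the 7 genes (95.1 nt) was 93.0 with at least 15 passes, 93.5 with wells of 1 read, 107 with medians and 104 with arithmetic means. The transcript difference of 25 nt was 23 when tails under 6 nt were dropped, 22 when those under 15 nt were, and 15 without Actb. Actb minus Actg1 (109 nt) was 30.8 with pseudogene copies. The share of tails with a base other than A (12.1%) was 9.67% without the first and last base. The median of the other actin cytoskeleton genes, pooled −1.09 nt from that of all genes, reversed to 0.949 with at least 15 passes. It was −2.02 without a pass filter, −0.127 and −0.369 when tails under 6 and 15 nt were dropped, −1.88 with wells of 1 read, −3.00 with medians, −1.65 with arithmetic means, −0.248 against protein-coding genes, −0.271 with 10 transcripts in both replicates together, −2.07 with the A run taken off, and −1.02 to −0.616 on leaving out 1 replicate. The cause was not tested. No paired analysis was possible because the data hold a single group. Precision is limited by depth for Actg1, Tmsb10, Myl6 and Myl12b.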

Other observations

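Further values of the other actin cytoskeleton genes are given here for genes named after their values were seen, most with few transcripts. Msn, the membrane linker moesin, had 123 nt in replicate 1 and 153 nt in replicate 2 over 38 transcripts. Brk1, a subunit of the WAVE complex, had 118 and 111 nt over 51 transcripts. Fscn1, which bundles filaments, had 106 and 109 nt over 37 transcripts. Myh9, a non-muscle myosin heavy chain, had 129 nt in replicate 1 and 8.53 nt in replicate 2 over 27 transcripts, so its replicates fell on opposite sides of the median gene. The destrin gene Dstn, a relative of Cfl1, had 89.8 and 90.3 nt over 268 transcripts.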
